A study of Homo sapiens with 29 samples.

Results

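Open chromatin regions that stood alone in the genome of 22Rv1 cells, a human prostate cancer line, were followed through 29 ATAC-seq peak lists. In ATAC-seq a transposase cuts accessible DNA and the released fragments are sequenced, and a peak is a stretch where such fragments pile up above the local background. Overlapping or touching peaks of the 3 lists from parental cells given DMSO were merged into 110981 regions, of which 72530 had a peak in all 3 lists and are called kept regions. A kept region was isolated when more than 100000 bp separated it from the nearest other kept region on each side. This rule found 1525 isolated regions, and the other 71005 kept regions served as the comparison. At 7 isolated regions, the first or last of their chromosome, 1 side had no kept neighbour at all. The regions were thus chosen by the positions of peaks in the 3 DMSO lists and by the distances between them, so what was measured in those lists is given as description and was not tested.

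The 29 libraries form 12 groups, each library with a peak list of its own. Parental 22Rv1 cells gave 5 groups of 3 libraries: DMSO at 0.1%, the stereoprobe WX-02-23 at 20 µM, its stereoisomer WX-02-43 at 20 µM, and pladienolide B, or PladB, which binds the splicing factor SF3B1, at 10 nM or at 100 nM. Engineered 22Rv1 cells gave 7 groups of 2 libraries, and all of them overexpressed Y36C-PHF5A, an altered form of a protein of the same splicing complex. One engineered line carried doxycycline (Dox)-inducible WT-FOXA1 and the other Dox-inducible C258A-FOXA1, in which the cysteine that WX-02-23 engages is replaced. Both lines were studied under Dox with DMSO, with WX-02-23 at 20 µM and with PladB at 100 nM. The WT-FOXA1 line was also studied with DMSO and no Dox. Exposure to DMSO, a stereoprobe or PladB lasted 3 h, and the time under Dox is not given here. The labels name no loss of the cells' own FOXA1 and do not say whether a line was a single clone or which promoter drove the transgene. They also do not say that replicates came from separate cultures, so the p-values measure the spread between these libraries, which may be technical.

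List length, counted without the mitochondrial genome, was 82538 to 98193 peaks for parental and 62832 to 92658 peaks for engineered libraries. Read totals were not used here, so depth is known only in relative terms. The background in reads per base that the deposited folds imply, a relative depth, ran from 0.546 to 1.502. Its highest value belonged to WX-02-43 replicate 3. The names inside the peak lists show that parental and engineered libraries were processed in different folders, so cell line and processing batch cannot be told apart.

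Most open regions of a genome lie in groups near genes, where promoters and nearby enhancers are packed closely. A region far from any other usually lies in gene-poor sequence, where enhancers, insulator sites bound by CTCF and lone promoters can still be open. FOXA1 is a pioneer factor: it can bind its site in closed chromatin and help to open it, and in prostate cells it prepares enhancers for the androgen receptor.

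Isolated regions were close in width to other kept regions in DMSO cells. Their median width was 443 bp (quartiles 331 and 609 bp, range 179 to 1984 bp), against 469 bp (quartiles 327 and 694 bp) for the other kept regions. Few were built from more than 1 peak per library, since 1357 of the 1525 merged exactly 3 peaks. The distance to the nearest kept neighbour had a median of 130850 bp and reached 930624 bp. Strength was ranked by the authors' p-value as a percentile within each list (100 is the strongest peak), and the median isolated region stood at 54.9, against 60.02 for the others. The authors' fold over local background gave the opposite order, with a median of 9.03 for isolated regions and 8.36 for the others.

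Both orders can be read from the reads at the peak summit and the local background, which were recovered from the deposited fold and p-value. In the 3 DMSO libraries the median isolated peak had 17, 19 and 18 summit reads, and the median peak of the other kept regions 25, 28 and 26. The local background under isolated peaks was 0.9, 1.02 and 0.93 reads per base, and under the others 1.92, 2.15 and 1.98. At 47.5%, 48.7% and 49.6% of isolated peaks the local background was no higher than the genome-wide level, compared with 16.1%, 15.9% and 16.2% of the others. Isolated regions thus carried fewer reads at the summit and sat on a lower floor.

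Along the distance scale summit reads fell gradually and levelled off before the limit of the rule, while width had no single direction. Kept regions within 1 kb of a neighbour (11943 regions) had a median of 35 summit reads, a fold of 6.45 and a width of 436 bp. At 5 to 20 kb (28278 regions) the medians were 24 reads, a fold of 9.34 and a width of 502 bp. Just outside the rule, at 90 to 100 kb (426 regions), the medians were 17.7 reads, a fold of 8.89 and a width of 423 bp. Just inside it, at 100 to 110 kb (318 regions), they were 18.3 reads, a fold of 9.09 and a width of 442 bp. Beyond 200 kb (200 regions) they were 17.5 reads, a fold of 9.48 and a width of 427.5 bp.

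**Figure D1:**
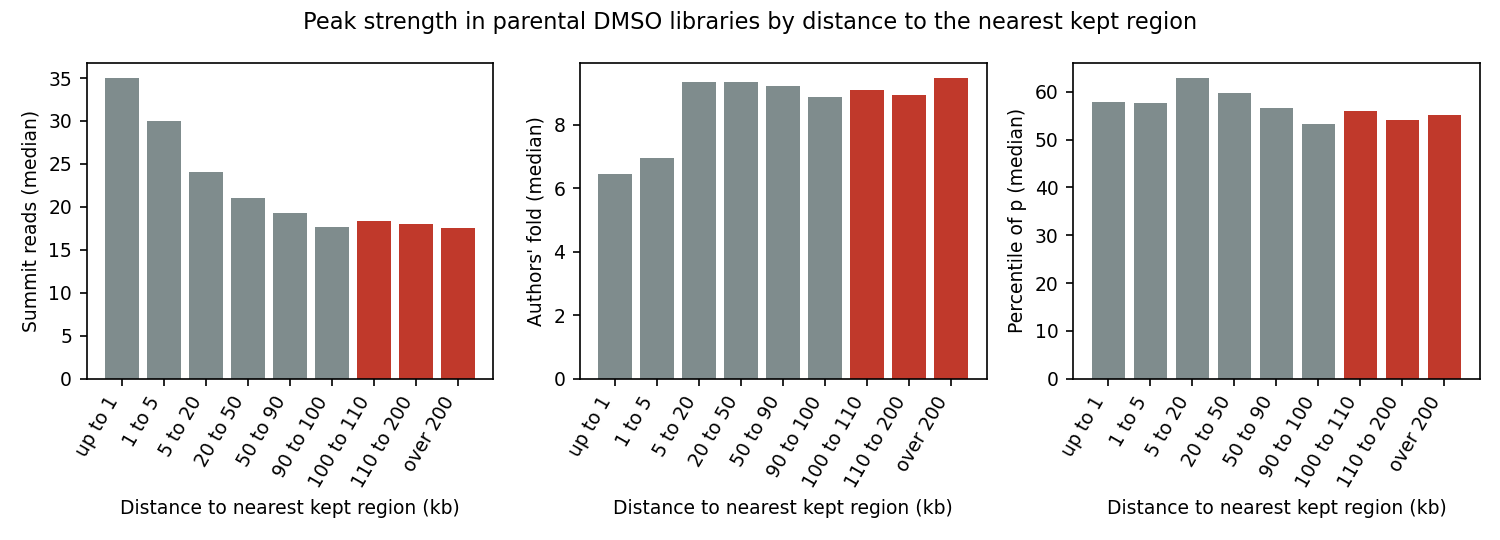
Median summit reads, median of the authors' fold and median percentile of the authors' p in the parental DMSO lists, by distance to the nearest kept region in kb; grey bars are other kept regions and red bars are isolated regions, and no error is drawn because each bar is 1 median over regions. Summit reads fall from 35 in the nearest class to between 17.5 and 18.3 in the red bars, while the fold is lowest, at 6.45, in the nearest class.

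The strongest isolated regions ranked with the strongest peaks of the genome (positions in hg19). The first was chr1:244211088-244211999, 912 bp wide, with folds of 14.99, 16.4 and 16.2 and 121, 139 and 129 summit reads in the 3 DMSO libraries. Next came chr6:155635478-155636398 with folds of 15.5, 14.4 and 15.1, and chr6:154664834-154665545 with folds of 17.6, 18.9 and 18.6. The other 2 of the 5 were chr2:214148823-214149651 (folds 16.8, 20.0 and 18.8) and chr1:196960798-196961816 (folds 18.0, 19.8 and 19.3). All 5 had a peak in 12 of 12 treated parental and 14 of 14 engineered libraries. The first reached folds of 15.1 to 17.9 in the treated parental lists and 17.5 to 20.5 in the engineered lists. Here and below, folds of different lists are description only, because the lists differ in relative depth and processing batch.

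At the other end, chr4:165163124-165163342 was the weakest isolated region, with 6, 7 and 7 summit reads and folds of 3.72, 3.996 and 4.17 in the DMSO libraries. It had a peak in 7 of 12 treated parental libraries and 1 of 14 engineered ones. The next weakest, chr13:59026358-59026763, had 8 summit reads in each DMSO library and a peak in 3 of 12 and 6 of 14. The third weakest, chr9:67926377-67926742, had a peak in 11 of 12 and 4 of 14. All 3 were present in some replicates of a group and missing from others, in parental and in engineered groups.

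The most remote regions lay on chromosome 9. At chr9:45726610-45727192 the kept neighbours were 930624 bp to the left and 1134790 bp to the right. Its DMSO folds were 11.01, 10.9 and 11.5, and all 26 other libraries held it. At chr9:39817270-39817853 (neighbours at 1108970 and 815347 bp) all 12 treated parental libraries and 12 of 14 engineered libraries held a peak. The next was the first kept region of chromosome 1, chr1:10240-10660, whose right neighbour was 703038 bp away. It had folds of 4.66 to 10.4 in the treated parental lists and 10.6 to 16.3 in the engineered lists, and all 26 libraries held it. These distances count every base of hg19, and whether reads could be placed in the gaps, or uniquely at these remote regions, was not tested.

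Width and strength did not go together at the top. The 3 widest isolated regions were chr8:85093830-85095813 (1984 bp), chr6:114663422-114665090 (1669 bp) and chr2:160142381-160143930 (1550 bp). Their DMSO percentiles were 77.5, 75.8 and 76.4, well below those of the 5 strongest, which were 99.7 or higher. All 3 were held by every treated parental and every engineered library. The third had folds of 8.01 to 10.4 in the treated parental lists and 10.3 to 14.2 in the engineered lists.

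Isolated regions were spread unevenly over the chromosomes. Chromosome 2 had the most, 160, followed by X with 156, chromosome 4 with 135 and chromosome 5 with 112. On X they made up 8.52% of the kept regions, and X held 10.2% of all isolated but only 2.52% of all kept regions. On Y they were 19 of 141 kept regions (13.5%). The gene-rich chromosomes 19, 17 and 22 had 8, 14 and 7, or 0.262%, 0.445% and 0.490% of their kept regions. The rule works on distance, so a chromosome with few kept regions per length has more isolated ones by construction.

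**Figure D2:**
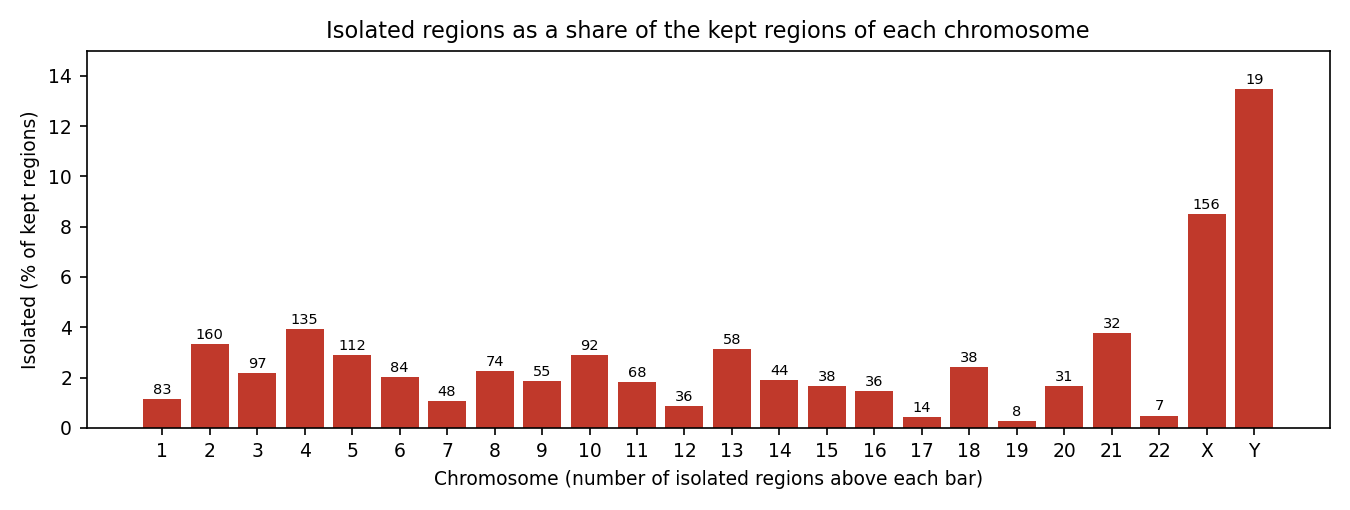
Isolated regions as a percent of the kept regions of each chromosome, with their number above each bar. Y and X stand highest, at 13.5% and 8.52%, and chromosome 19 lowest, at 0.262%.

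Isolated regions also followed one another. Of the 1525, 721 (47.3%) stood between kept regions that were not isolated, and the others formed runs of consecutive isolated regions. There were 207 runs of 2, 66 of 3, 23 of 4, 15 of 5, 3 of 6 and 1 of 7. The run of 7 spanned chrX:140270759-141572091, which is 1301333 bp. The runs of 6 lay at chrX:32802042-34486022, chr13:64429616-65489760 and chr10:130489558-131378249.

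The libraries that did not choose the regions gave the same order of strength by p-value. In each list the median percentile was taken over the isolated regions with a peak and over the other kept regions with a peak. The difference, isolated minus other, was −6.64 points on average over the 12 treated parental libraries (range −8.76 to −5.41) and was negative in 12 of 12. An exact two-sided sign-flip permutation test over libraries gave p = 0.000488, the smallest possible with 12 libraries, which became 0.000586 when 6 such tests were adjusted by Benjamini-Hochberg. Over the 14 engineered libraries the difference was −10.9 points (range −14.7 to −8.01), negative in 14 of 14 (exact sign-flip permutation p = 0.000122, the smallest possible; adjusted 0.000244). These libraries were compared on the same set of regions, so the test speaks of agreement between libraries and not of other regions.

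That order depended on what was ranked. By the authors' fold instead of their p-value, isolated regions stood 5.35 percentile points higher in the treated parental libraries (exact permutation p = 0.000488) while in the engineered ones the difference was −0.673 points (exact permutation p = 0.195). By summit reads the differences were −18.2 and −21.4 points. These rankings were chosen after seeing the data.

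Peaks at isolated regions were also narrower than those at the other kept regions as a whole. The difference of median peak widths averaged −29.9 bp in the treated parental libraries (range −43 to −18 bp, negative in 12 of 12; exact sign-flip permutation p = 0.000488, adjusted 0.000586). In the engineered libraries it averaged −28.2 bp (range −38 to −22 bp, negative in 14 of 14; exact sign-flip permutation p = 0.000122, adjusted 0.000244). The median isolated peak spanned 319 to 366.5 bp across the treated parental lists and 292 to 322 bp across the engineered lists. Among parental groups the mean of these medians was lowest for PladB at 100 nM, whose libraries had 319, 326 and 329.5 bp, and WX-02-43 replicate 3 had 327 bp. The same PladB group had the lowest mean for the other kept regions, 346 bp, and the lowest implied background, 0.662 to 0.734 reads per base.

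The share of isolated regions that still had a peak was high in parental cells and lower in the engineered lines. Any peak that overlapped a region by at least 1 bp counted as holding it, and where none did the region may be open at a level too low to be called. The treated parental libraries held 85.0% to 96.8% of the isolated regions, with a median of 92.3%. The engineered libraries held 50.3% to 76.1%, with a median of 67.3%. The ranges do not overlap, and the line, its transgenes and the processing batch cannot be told apart in that gap.

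Other kept regions, taken as a whole, were held more often. In the treated parental libraries the share of isolated regions held was 1.89 points lower than that of the other kept regions (range −5.67 to 0.350, lower in 11 of 12; exact sign-flip permutation p = 0.00146, adjusted 0.00146). The exception was WX-02-43 replicate 1, at 96.8% against 96.4%. In the engineered libraries the share was 9.49 points lower (range −14.3 to −4.63, lower in 14 of 14; exact sign-flip permutation p = 0.000122, adjusted 0.000244). Regions on either side of the 100 kb limit were held at like shares. In the treated parental libraries the share was 94.2% at 5 to 20 kb, 92.9% at 50 to 90 kb, 92.1% at 90 to 100 kb and 93.1% at 100 to 110 kb. In the engineered libraries the same classes were held at 76.8%, 70.5%, 67.6% and 68.6%. With regions rebuilt without DMSO replicate 1, the parental difference was −3.61 points. With lists of equal length it was −5.49 points, and with 50% of the region covered −3.04 points.

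**Figure D3:**
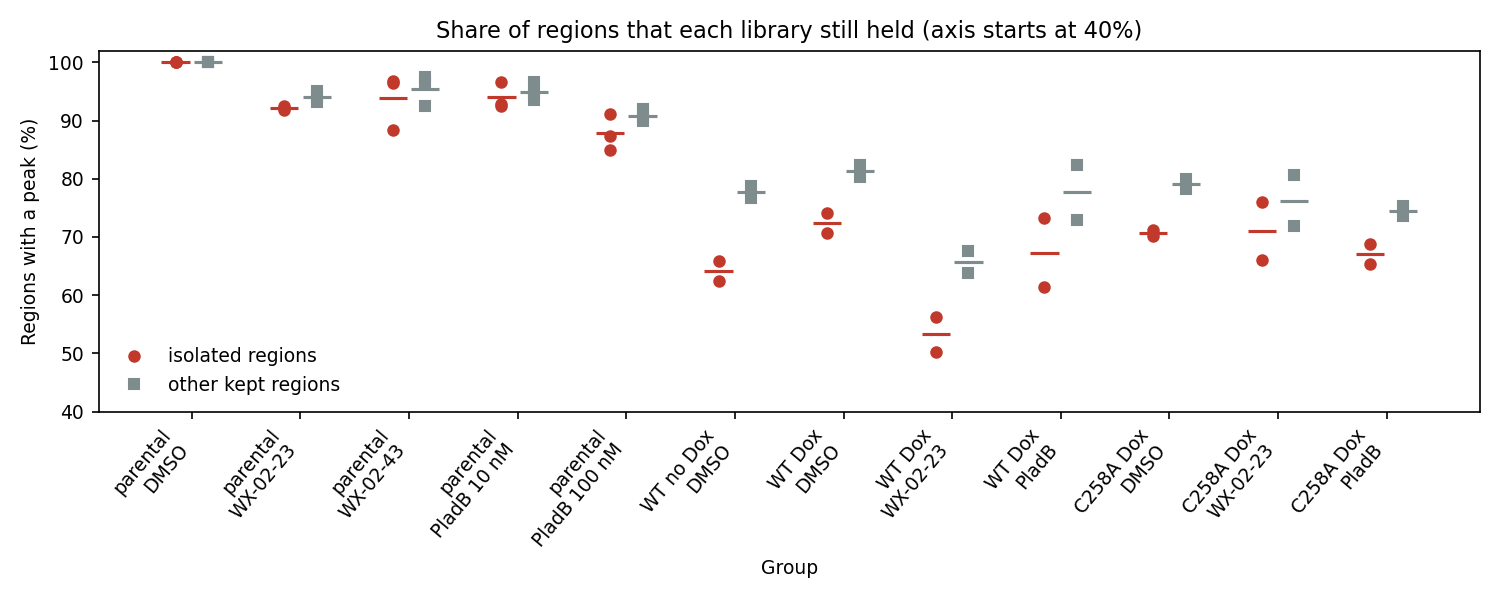
Percent of regions with a peak in each library, by group; red circles are isolated regions, grey squares other kept regions, short lines group means, and the axis starts at 40%. DMSO parental libraries are at 100% by the rule, the treated parental circles lie between 85.0% and 96.8%, and the WT-FOXA1 circles with WX-02-23 are lowest, at 50.3% and 56.3%.

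The parental difference was smaller at equal DMSO strength. All kept regions were divided into 4 strength classes of equal size by their mean DMSO percentile, with boundaries at 38.3, 59.9 and 80.2. Isolated regions fell into them unevenly, with 483, 399, 415 and 228 from weakest to strongest, so 31.7% lay in the weakest class and 14.95% in the strongest. In the weakest class the treated parental libraries held 78.3% ± 9.65 (SD, n = 12) of the isolated and 78.5% ± 7.73 (SD, n = 12) of the other regions. In class 2 the means were 95.6% and 96.9%, and in the strongest both were 100%. Within classes the mean difference was −0.385 points in the treated parental libraries (exact sign-flip permutation p = 0.377), an alternative chosen after seeing the data.

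In the engineered lines the difference at equal DMSO strength varied by group. Within classes it averaged −5.06 points over the 14 libraries and was negative in each (exact sign-flip permutation p = 0.000122, the smallest possible). It was widest in the WT-FOXA1 line without Dox, at −8.73 and −9.81 points, and narrowest in C258A-FOXA1 cells given WX-02-23, at −0.897 and −1.01 points. In class 2 the latter group held 73.6% of the isolated and 70.7% of the other regions. In the weakest class the engineered libraries held 35.8% ± 8.69 (SD, n = 14) of the isolated and 41.7% ± 9.25 (SD, n = 14) of the other regions. In class 3 they held 84.3% and 92.0%, and in the strongest 99.2% and 99.3%. The widest gap among groups in class 3 was in the WT-FOXA1 line with WX-02-23, at 70.6% ± 3.07 against 84.2% ± 2.24 (SD, n = 2). In the strongest class that group held 98.0% and 98.5%.

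**Figure D4:**
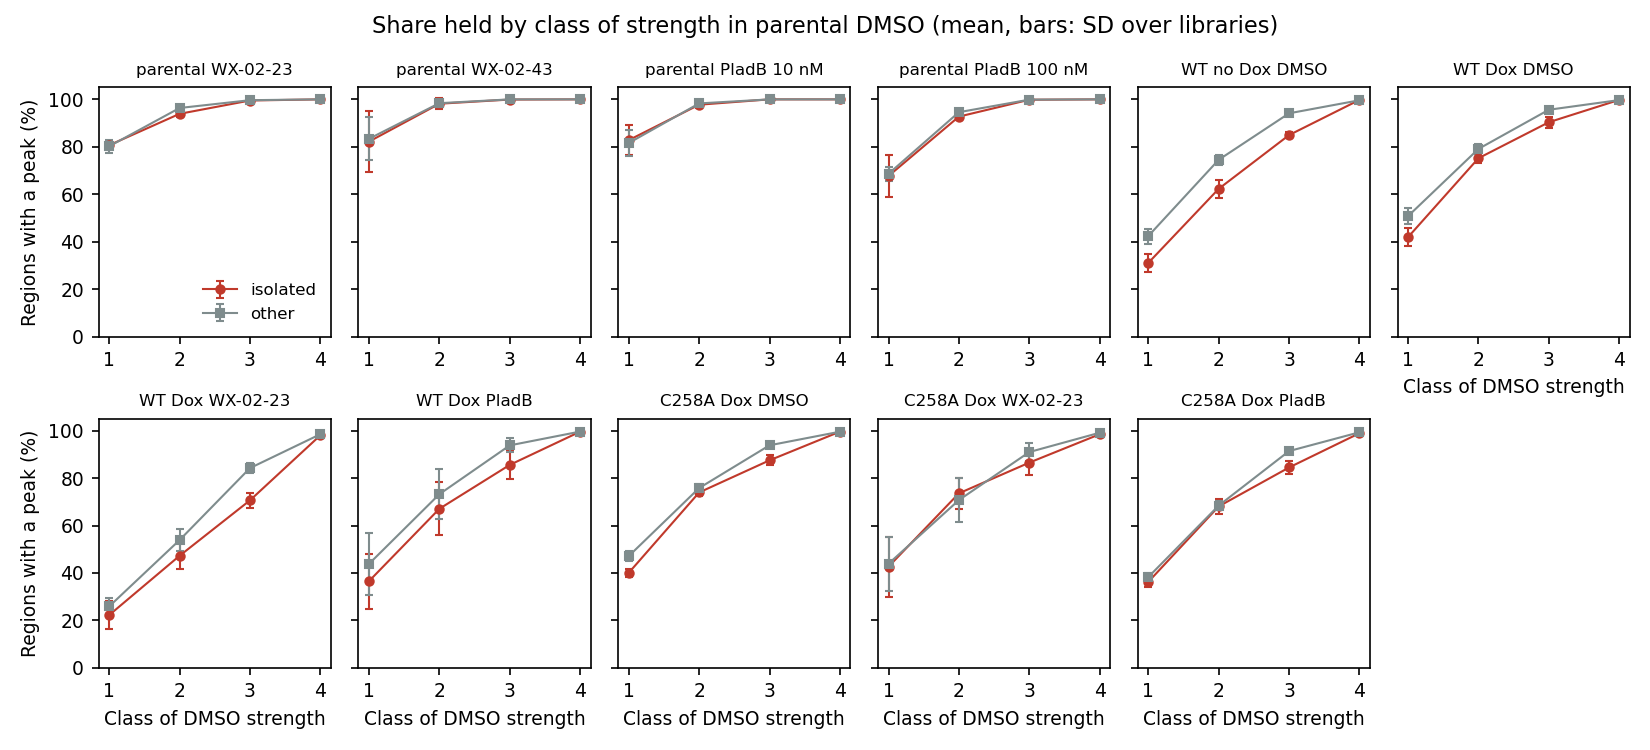
Percent of isolated (red) and other kept regions (grey) with a peak, as mean over libraries with SD bars, by class of DMSO strength (1 weakest, 4 strongest), 1 panel per group besides parental DMSO. The lines nearly coincide in the parental panels, where the weakest class averages 78.3% and 78.5%, and separate in classes 1 to 3 of the WT-FOXA1 panels.

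A core of isolated regions was present in every library. All 26 libraries besides the parental DMSO ones held 514 of the 1525 (33.7%), against 50.4% of the other kept regions. All 12 treated parental libraries held 1041 (68.3%), against 76.5%, and all 14 engineered libraries held 532 (34.9%), against 51.7%. Of the 228 isolated regions of the strongest class, 221 were held by all 26. Of the 483 in the weakest class, 6 were. At the other extreme, 118 isolated regions (7.74%) had a peak in none of the 14 engineered libraries, against 5.74% of the others, and 93 of the 118 lay in the weakest class.

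A small set was open in every parental library and had no peak in any engineered one. It numbered 28 isolated regions (1.84%), beside 1.43% of the other kept regions. The strongest was chr5:114001247-114001724, with DMSO folds of 11.2, 13.5 and 11.2 and folds of 6.62 to 12.7 in the treated parental lists. The next were chr12:43526682-43527195, with DMSO folds of 8.51, 11.5 and 12.5, and chr7:54254073-54254438, with 11.6, 8.85 and 8.70. None of the 28 came from the strongest class.

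The stereoisomers WX-02-23 and WX-02-43 were compared at 20 µM and 3 h on the share of isolated regions held. With WX-02-23 the 3 libraries held 92.5%, 91.9% and 92.1% (mean 92.2% ± 0.296, SD, n = 3). With WX-02-43 they held 96.8%, 96.4% and 88.4% (mean 93.9% ± 4.74, SD, n = 3). The third WX-02-43 library, whose background was the highest of all, lies below the WX-02-23 libraries and the other 2 above, so the groups overlap. The difference was −1.70 points (SE 2.74; exact two-sided permutation p = 0.4, adjusted 0.533 over 4 parental comparisons, where 3 against 3 cannot go below 0.1). The 9 pairwise differences between libraries, which form the exact 90% rank interval, ran from −4.92 to 4.07 points. Without WX-02-43 replicate 3 the difference was −4.44 points, without WX-02-43 replicate 1 or 2 it was −0.240 or −0.437 points, and with regions rebuilt without DMSO replicate 3 it was −0.926 points. With lists of equal length the groups no longer overlapped. The WX-02-23 libraries then held 73.2%, 72.3% and 72.5% and the WX-02-43 libraries 76.3%, 77.8% and 73.6%, a difference of −3.23 points (exact permutation p = 0.1, the smallest possible).

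The gap between isolated and other regions was then compared between the stereoisomers. The isolated-minus-other difference averaged −1.94 points with WX-02-23 and −1.61 with WX-02-43. They differed by −0.330 points (SE 1.37; exact permutation p = 0.8, adjusted 0.8), with pairwise differences from −2.92 to 2.76 points. The sign turned without DMSO replicate 3 (0.331 points) and without WX-02-43 replicate 1 (0.648 points).

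Single regions were then counted where all 3 libraries of one stereoisomer had a peak and none of the other. There were 23 isolated regions with a peak in 3 of 3 WX-02-43 and 0 of 3 WX-02-23 libraries (1.51% of isolated regions), where 0.877% of all kept regions met the same rule. The reverse held for 2 (0.131%), where the figure over all kept regions was 0.119%. The first count was 41 without WX-02-43 replicate 3 and 49 with lists of equal length. The second was 9 with lists of equal length and 11 without WX-02-43 replicate 1. It was 8 without WX-02-43 replicate 2, 5 without WX-02-23 replicate 3, and 4 without DMSO replicate 1, WX-02-23 replicate 1 or WX-02-43 replicate 3.

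The 23 were looked up with PladB. The 3 libraries at 10 nM held 21, 20 and 20 of them. The 3 at 100 nM held 14, 14 and 17, which is 60.9%, 60.9% and 73.9%, below the 85.0%, 91.1% and 87.3% of all isolated regions in those libraries. The 23 were weaker, however, with a median DMSO percentile of 38.8 against 54.9 for all isolated regions. On average PladB at 100 nM held 67.7% of the isolated regions of the weakest class and 92.7% of those of class 2. The 23 were not compared with regions of equal strength. In the WT-FOXA1 line the 2 DMSO libraries held 12 and 12 and the 2 WX-02-23 libraries 3 and 2. The mean share of all isolated regions in these groups was 72.5% and 53.3%. In the weakest class it was 41.9% and 22.3%, and in class 2 75.2% and 47.2%. In the C258A-FOXA1 line the DMSO libraries held 12 and 10 and the WX-02-23 libraries 7 and 9. There the mean share of all isolated regions was 70.7% and 71.0%, and in the weakest class 40.1% and 42.7%. These engineered libraries had no part in choosing the 23, but their lists differed in length, as given below.

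The strongest of the 23 in DMSO was chr15:54637471-54637815, with DMSO folds of 10.1, 8.49 and 9.89 and WX-02-43 folds of 8.65, 8.97 and 7.59. All 6 PladB libraries held it and none of the 14 engineered libraries did. At chr14:84295295-84295992 the DMSO folds were 7.27, 6.68 and 9.74 and the WX-02-43 folds 10.2, 8.45 and 9.59. This region had a peak in 10 of the 10 engineered libraries without WX-02-23 and in none of the 4 with it, in either line. Those 10 peaks were weak, with folds of 4.63 to 6.63, and 2 of 3 parental libraries with PladB at 100 nM held the region. At chr13:81597000-81597396 the pattern differed by line. Both DMSO libraries of the WT-FOXA1 line held it and neither WX-02-23 library did, while in the C258A-FOXA1 line both DMSO and both WX-02-23 libraries held it, the latter with folds of 7.83 and 6.26.

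The other 2 named regions of this set were less constant elsewhere. At chrX:36701387-36701973 the WX-02-43 folds were 6.88, 6.07 and 5.20, and no engineered library held it. At chr20:7535249-7535843 they were 9.15, 9.44 and 7.19, and 6 of 14 engineered libraries held it. Both regions of the reverse set were weak. At chr13:112332539-112332802 the WX-02-23 folds were 7.52, 6.19 and 5.21, and no engineered library held it. At chr5:4407830-4408106 they were 5.38, 4.65 and 6.28, and 1 of 14 engineered libraries held it.

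PladB was compared between its 2 doses. At 10 nM the libraries held 96.6%, 92.9% and 92.5% of isolated regions (mean 94.0% ± 2.28, SD, n = 3), and at 100 nM 85.0%, 91.1% and 87.3% (mean 87.8% ± 3.11, SD, n = 3). Every 100 nM library was below every 10 nM library. The difference was −6.14 points (SE 2.23; exact permutation p = 0.1, the smallest that 3 against 3 allows, adjusted 0.4), with pairwise differences from −11.6 to −1.31 points. The lists at 100 nM were also the shorter ones, with 82538 to 87426 peaks against 88818 to 98083, and with lists of equal length the difference was −4.24 points. The background that the folds imply was lower too, at 0.662 to 0.734 reads per base against 0.843 to 1.016 at 10 nM. Dose and relative depth therefore cannot be told apart here, and lists of equal length do not equalise depth. Other kept regions went from 95.0% to 90.8%, and the isolated-minus-other difference changed by −1.97 points (SE 1.51; exact permutation p = 0.3, adjusted 0.533). That change was −0.632 points without 100 nM replicate 1, −3.07 without 100 nM replicate 2, and −0.859 and −0.454 with isolation distances of 50000 and 200000 bp. With distance to regions of any DMSO library it was −3.58 points, and with 50% of the region covered −2.97.

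At single regions, 16 isolated ones had a peak in all 3 libraries at 10 nM and none at 100 nM (1.05%), where 0.580% of all kept regions did. The reverse held for 2, or 0.131%, beside 0.0317% of all kept regions. The 16 were weak regions, with a median DMSO percentile of 22.2. The WX-02-23 libraries held 9, 9 and 11 of them and the WX-02-43 libraries 15, 13 and 9. Of all isolated regions of the weakest class these groups held 80.7% and 82.2% on average. The 16 were not compared with regions of equal strength.

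Against DMSO, which every isolated region has by the rule, the numbers with no peak in any of the 3 treated libraries were as follows, and nothing is read from them because the rule used DMSO and the 4 comparisons share it. With WX-02-23 there were 50 (3.28%, beside 2.03% of all kept regions). With WX-02-43 there were 12 (0.787%, beside 0.623%). With PladB at 10 nM there were 17 (1.11%, beside 0.951%) and at 100 nM 55 (3.61%, beside 2.76%).

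In the WT-FOXA1 line fewer isolated regions had a peak with WX-02-23 than with DMSO. The 2 DMSO libraries held 74.2% and 70.8% (mean 72.5% ± 2.41, SD, n = 2) and the 2 WX-02-23 libraries 56.3% and 50.3% (mean 53.3% ± 4.22, SD, n = 2). The difference was −19.2 points (SE 3.44; exact permutation p = 0.33, the smallest that 2 against 2 allows), with pairwise differences from −23.9 to −14.5 points. The WX-02-23 lists of this line were among the 3 shortest of all, with 67815 and 62832 peaks against 88140 and 85009 for DMSO. With lists of equal length the difference was −5.21 points. Other kept regions were held at 81.4% and 65.7%.

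In the C258A-FOXA1 line the groups overlapped. Their lists had 84260 and 87171 peaks with DMSO and 76645 and 92658 with WX-02-23. The DMSO libraries held 70.2% and 71.3% (mean 70.7% ± 0.788, SD, n = 2) and the WX-02-23 libraries 66.0% and 76.1% (mean 71.0% ± 7.14, SD, n = 2). The difference was 0.295 points (SE 5.08; exact permutation p = 1), with pairwise differences from −5.31 to 5.90 points, and it was −4.75 points without WX-02-23 replicate 2. The difference between the lines in this effect was −19.5 points (SE 6.13; exact permutation of line labels within treatment, 36 arrangements, p = 0.111, where the smallest possible is 0.0556). With lists of equal length it was −6.49 points (exact permutation p = 0.167). For the other kept regions the changes with WX-02-23 were −15.6 points in the WT-FOXA1 and −2.89 points in the C258A-FOXA1 line.

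Counted by region, 162 isolated regions (10.6%) had a peak in both WT-FOXA1 DMSO libraries and neither WX-02-23 library, beside 8.57% of all kept regions. The reverse held for 7 (0.459%, beside 0.298%). In the C258A-FOXA1 line 27 (1.77%) had a peak in DMSO alone, beside 1.86%, and 33 (2.16%) with WX-02-23 alone, beside 1.01%. Compared directly under WX-02-23, 143 isolated regions (9.38%) had a peak in both C258A-FOXA1 and neither WT-FOXA1 library, beside 5.31%, and 3 (0.197%) the reverse, beside 0.397%. In that comparison the C258A-FOXA1 lists were the longer ones, with 76645 and 92658 peaks against 67815 and 62832. These counts by region were not repeated with lists of equal length.

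Of the 162, 85 had a peak in both C258A-FOXA1 libraries with WX-02-23. That is 85 of 1525 isolated regions, beside 2397 of 71005 other kept regions under the same rule, of which 6057 were lost in the WT-FOXA1 line. The strongest in parental DMSO was chr5:7170937-7171387, with parental DMSO folds of 14.8, 12.9 and 14.8. In the WT-FOXA1 line its folds were 6.95 and 9.76 with DMSO and it had no peak with WX-02-23, and in the C258A-FOXA1 line they were 9.72 and 9.65 with DMSO and 6.07 and 8.35 with WX-02-23. Parental WX-02-23 libraries kept it at folds of 13.1, 13.1 and 11.5. At chr4:181984422-181984875 the WT-FOXA1 DMSO folds were 12.8 and 11.4, again with no peak under WX-02-23, and the C258A-FOXA1 folds 13.2 and 13.5 with DMSO and 10.3 and 10.3 with WX-02-23. At chr6:102671609-102672059 the WT-FOXA1 DMSO folds were 8.56 and 6.51, and at chr18:49417180-49417611 they were 5.35 and 5.42. At chr5:119936312-119936729, 2 of 3 parental WX-02-23 libraries held a peak, with folds of 7.54 and 5.72 against DMSO folds of 15.8, 12.5 and 10.9. The other 4 of these 5 regions were held by all 3 parental WX-02-23 libraries.

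PladB at 100 nM was compared with DMSO in both engineered lines. In the WT-FOXA1 line its libraries held 61.4% and 73.2%, and the difference from DMSO was −5.18 points (SE 6.14; exact permutation p = 0.667), with pairwise differences from −12.8 to 2.43 points. It was 0.721 points without WT-FOXA1 PladB replicate 1, whose list had 71121 peaks. In the C258A-FOXA1 line they held 65.4% and 68.7%, and the difference was −3.67 points (SE 1.76; exact permutation p = 0.33), which turned to 2.10 points with lists of equal length. By region, 37 (2.43%, beside 1.57%) and 38 (2.49%, beside 2.16%) had a peak with DMSO alone in the WT-FOXA1 and C258A-FOXA1 lines. The reverse held for 9 (0.590%, beside 0.484%) and 12 (0.787%, beside 0.491%).

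Induction of WT-FOXA1 was compared by Dox with DMSO against DMSO without Dox. The libraries without Dox held 65.9% and 62.4% of isolated regions (mean 64.2% ± 2.46, SD, n = 2), both below the 74.2% and 70.8% with Dox. The difference, Dox minus no Dox, was 8.30 points (SE 2.43; exact permutation p = 0.33, the smallest possible), with pairwise differences from 4.85 to 11.7 points. The lists without Dox were shorter, with 69814 and 67195 peaks, and with lists of equal length the difference turned to −2.30 points. By region, 95 isolated regions (6.23%) had a peak in both Dox libraries and neither without Dox, beside 3.00% of all kept regions, and 13 (0.852%) the reverse, beside 0.856%.

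The sequence on either side of the isolated regions was then searched for peaks. A peak was beside an isolated region when it lay within 100000 bp of it and outside it, and each peak was counted once. By the rule no region shared by the 3 parental DMSO lists lies there, so a low number in cells without induced FOXA1 is partly set by the choice of regions. These counts and their tests were chosen after seeing the data. The parental DMSO lists held 901, 1377 and 1016 such peaks, weak ones with median percentiles of 13.3 to 16.9, and 373 of the 1525 isolated regions had none in any DMSO list. In any of the 29 lists, 47 had none.

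The number of peaks beside isolated regions was higher with Dox in the WT-FOXA1 line. The 2 libraries without Dox held 399 and 289, and the 2 with Dox and DMSO 2059 and 2001. The difference was 1686 peaks (SE 62.2), a ratio of means of 5.90 (exact permutation p = 0.33, the smallest possible; 0.444 adjusted over 8 comparisons). Flanks without shared parental DMSO regions favour a low number without Dox, so nothing is read from the size of this difference. Peaks beside isolated regions were 0.572% and 0.430% of the lists without Dox and 2.34% and 2.35% of those with it. With lists shortened to 62832 peaks the numbers were 271 and 226 against 929 and 1044. In the C258A-FOXA1 line with Dox and DMSO they were 2329 and 2507, or 1348 and 1282 at equal length, and no library of that line lacked Dox.

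Those gained peaks were counted as regions of the WT-FOXA1 line. Peaks of its 2 Dox and 2 no-Dox DMSO lists were merged into 104233 regions, of which 13339 (12.8%) had a peak in both Dox and neither no-Dox library. Of the 2879 merged regions beside isolated regions, 1204 (41.8%) did. The rule removes regions open in all parental DMSO libraries from these flanks, so a larger gained share than that over all regions is built into the choice and nothing is read from it. The reverse, a peak without Dox alone, held for 31 (1.08%), beside 1.18% overall. The parental DMSO libraries, which the choice of flanks disfavours, had a peak at 5.23%, 7.14% and 4.49% of the 1204, and at 24.9%, 28.1% and 25.6% of the regions gained with Dox elsewhere. The C258A-FOXA1 DMSO libraries, which had no part in choosing them, had a peak at 78.7% and 79.6% of the 1204 and at 70.5% and 73.1% of those elsewhere. The WT-FOXA1 libraries with Dox and DMSO hold all gained regions by the rule, so other libraries can only be equal or lower. With WX-02-23 the WT-FOXA1 libraries, with lists of 67815 and 62832 peaks, held 61.1% and 51.5%, against 54.7% and 49.1% elsewhere. With PladB they held 68.4% and 84.9%, against 61.5% and 80.2%. The C258A-FOXA1 libraries held 77.6% and 85.5% with WX-02-23, against 64.1% and 77.1%. With PladB they held 67.9% and 70.7%, against 58.2% and 60.4%.

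**Figure D5:**
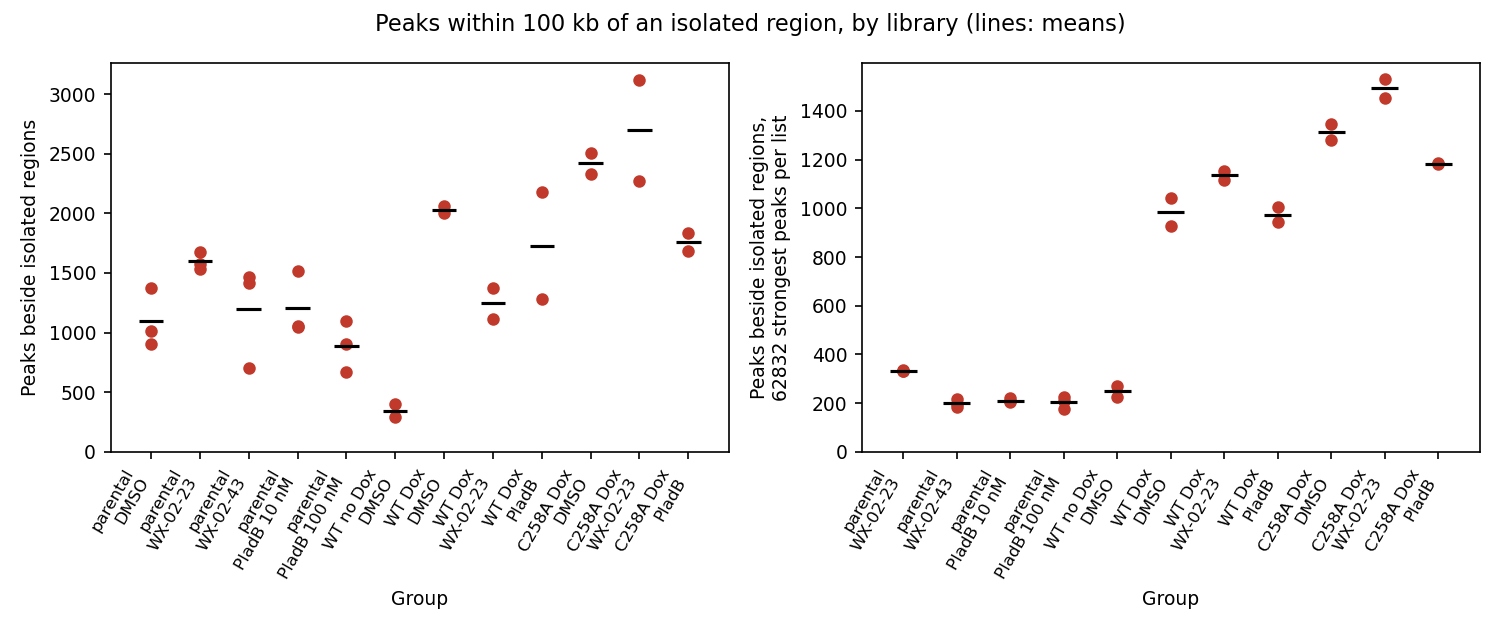
Number of peaks within 100 kb of an isolated region and outside it, per library (points) with group means (lines), from the lists as deposited (left) and from the 62832 strongest peaks of each list besides parental DMSO (right). The libraries of the WT-FOXA1 line without Dox hold 399 and 289, and its Dox DMSO libraries 2059 and 2001.

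In parental cells WX-02-23 gave 1680, 1576 and 1536 peaks beside isolated regions and WX-02-43 gave 1469, 1419 and 707. Every WX-02-23 library was above every WX-02-43 library, with a difference of 399 (SE 249.8; exact permutation p = 0.1, adjusted 0.444). With lists of equal length the numbers were 332, 335 and 332 against 196, 186 and 219, again without overlap. Without WX-02-43 replicate 3 the difference was 153. The flanks lack regions shared by the 3 parental DMSO lists, so a treatment further from DMSO can have more peaks there by that choice. Over all kept regions, 2.03% had no peak in any WX-02-23 library and 0.623% had none in any WX-02-43 library. Nothing is therefore read from the order of the stereoisomers in these flanks. The PladB libraries held 1520, 1049 and 1058 at 10 nM and 674, 1094 and 907 at 100 nM, and the difference was −317 (SE 197; exact permutation p = 0.3, adjusted 0.444). It was −162 without 10 nM replicate 1, −208.5 without 100 nM replicate 1, and −7.33 with lists of equal length (exact permutation p = 0.9).

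With WX-02-23 the WT-FOXA1 libraries had 1376 and 1118, below both DMSO libraries, a difference of −783 (SE 132; exact permutation p = 0.33, adjusted 0.444). At equal length the order reversed, with 1155 and 1118 against 929 and 1044, a difference of 150. In the C258A-FOXA1 line the numbers were 2275 and 3119, a difference from DMSO of 279 (SE 431; exact permutation p = 1, adjusted 1) that became −143 without WX-02-23 replicate 2 and 701 without replicate 1. At equal length the numbers were 1455 and 1529 with WX-02-23 against 1348 and 1282 with DMSO, a difference of 177 in the same direction as in the WT-FOXA1 line. The difference between the lines was −1062 (SE 451; exact permutation of line labels p = 0.33, adjusted 0.444). It was −640 without C258A-FOXA1 WX-02-23 replicate 2, and −27 at equal length (exact permutation p = 0.944). With PladB the WT-FOXA1 libraries held 1282 and 2177 and the C258A-FOXA1 libraries 1683 and 1836. Their differences from DMSO were −300.5 (SE 448; exact permutation p = 1, adjusted 1) and −658.5 (SE 117; exact permutation p = 0.33, adjusted 0.444), and the first became 147 without WT-FOXA1 PladB replicate 1. At equal length they were −12 and −132.5.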

How the data were processed

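Bowtie2, MACS2 and build hg19 come from the submitters' processing notes, and neither versions and options nor duplicate removal and read shifting were found there or in the labels. The authors deposited 1 narrowPeak list per library, none pooled. In the lists as the authors deposited them each peak has a score, a ratio of fold over local background, −log10 values for p and for q (lowest −log10 q 2.00053 over the lists) and a summit offset. These are the authors' values and served to rank, describe or filter peaks within a list. Summit reads and local background were recovered from the deposited fold and −log10 p (tolerance 0.0001).

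Mitochondrial peaks were left out, and 1 bp of overlap counted as held. Tests were exact permutations or sign flips over libraries, two-sided, with Benjamini-Hochberg adjustment. Merging, recovery and tests were tested on simulated data. Regions named by position were the 5 strongest, 3 most remote, 3 widest and 3 weakest, and, from the highest DMSO percentile down, up to 5 or 3 of each set defined by presence. The isolated regions, sets and tests were chosen with earlier results of these data known. Alternatives were other distances, overlaps, thresholds, list lengths and rankings, and leaving out each library. Genes, motifs and sequences at the regions are not analysed here for want of an hg19 genome. Versions were bedtools 2.31.1 and Python 3.11.15, with numpy 2.4.6, scipy 1.17.1, pandas 2.3.3, matplotlib 3.10.9 and statsmodels 0.14.6.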

Additional observations from a re-analysis of the deposited data

How the results depend on the processing

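Of 416 alternatives to 27 results, 379 were labelled unchanged. For tested results this meant the same direction and the same side of 0.05. For counts it meant a similar size, and for peaks beside isolated regions the same direction only. Comparisons between groups of 2 or 3 libraries cannot cross 0.05, so for them only the direction could change. The 379 include 16 alternatives that paired same-numbered libraries, where the direction could not change either. With 50000 bp, 200000 bp, or distance to regions of any DMSO library, 6086, 200 or 373 regions were isolated. Those held with WX-02-43 alone then numbered 74, 3 and 7, and with WX-02-23 alone 8, 0 and 0; with lists of equal length these were 49 and 9, and with 50% covered the second was 6. The C258A-FOXA1 WX-02-23 difference was −0.509 points at 50000 bp, −1 at 200000 bp and −1.04 with −log10 q of at least 5. The isolated-minus-other stereoisomer difference was 0.311 points with distance to any DMSO region. With lists of equal length, PladB in the C258A-FOXA1 line gave 2.10 points, Dox −2.30 points, and WX-02-23 in the WT-FOXA1 line 150 peaks beside isolated regions. Added after seeing the data, ranking by fold gave 5.35 and −0.673 percentile points, and strength classes gave −0.385 points of share held. In each case the cause was not tested.

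Leaving out 1 library gave −1.59 to 0.648 points for the isolated-minus-other stereoisomer difference, −4.75 to 5.34 for C258A-FOXA1 with WX-02-23 and −11.1 to 0.721 for WT-FOXA1 with PladB. The counts held with WX-02-43 alone ran from 19 to 41 and with WX-02-23 alone from 2 to 11. Differences in peaks beside isolated regions ran from −143 to 701 (C258A-FOXA1, WX-02-23) and −748 to 147 (WT-FOXA1, PladB). Deviations of same-numbered libraries correlated by −0.042 to 0.036, which does not settle whether they were prepared together. With same-numbered libraries paired (the replicate block), the stereoisomer difference was again −1.70 points, because pairing cannot change a difference of means. Of 16 such sign-flip p-values 0 were under 0.05, but 2 or 3 pairs cannot reach 0.05, so nothing is read from that. Comparisons between groups of 2 or of 3 libraries cannot reach 0.05 either. Equal list length does not equalise depth: the list with the second highest background, 1.256, was the shortest.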
